A study of Homo sapiens with 6 samples.

Results

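The genes described here are 54 genes of DNA replication, taken as a fixed list of symbols that covers the steps from origin recognition to lagging strand repair, the supply of nucleotides and the protection of the fork. Chromatin accessibility at them was read in 2 ways. A promoter region overlapped a window of 2 kb in both directions from any start of the gene's protein-coding transcripts (GENCODE 44), and a distal region was one outside all such windows whose nearest protein-coding start site, within 100 kb, belonged to the gene. Of 108542 regions in the table, 20094 were promoter regions of protein-coding genes, and 67 of these belonged to the 54 replication genes. Of the 55158 distal regions within 100 kb of a start site, 93 were nearest to a replication gene. Every replication gene had a promoter region. A single promoter region was found at 42 genes, 11 genes had 2 and RFC4 had 3.

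Accessibility had been measured by ATAC-seq, in which a transposase cuts and tags open DNA, in EndoC-βH3 cells. This human line of beta cells was derived from fetal pancreas and carries removable immortalising transgenes (hTERT and the large T antigen of SV40) and an inducible Cre recombinase. The senescent group had received 4-hydroxy tamoxifen for 3 weeks, which activates the recombinase and excises the transgenes, and the non-senescent group was the untreated control. Both groups carry the genotype label WT, each had 3 libraries of 100000 cells, and the model is a single cell line. Nothing in the labels says that the libraries came from separate cultures, so the p-values measure the spread between these libraries, which may be technical. The T antigen is known to bind and inactivate both p53 and the retinoblastoma protein.

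DNA replication starts from origins that are marked by the origin recognition complex, licensed by loading of the MCM helicase and fired by kinases that recruit CDC45 and the GINS complex. Primase and the polymerases then copy both strands, with PCNA as the sliding clamp. Many genes of this machinery are textbook targets of E2F transcription factors, which the retinoblastoma protein holds inactive in resting cells, and in adult beta cells the machinery is mostly idle because these cells rarely divide.

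The table gives 1 mean signal per region, which is the average of normalised read counts over the 6 libraries, and a log2 fold change between the groups with a standard error (SE). Values of single libraries are not part of it. All values below are those of the authors' deposited table, and each group's own level cannot be shown. Which group is the numerator is not stated in the table. The senescent group was assumed, following the study's own naming of gains and losses, so negative values stand for lower accessibility in senescent cells. As a check, 21 of 23 known p53 target genes had promoter regions, 29 in all, of which 5 were higher and 2 lower at an adjusted p-value under 0.05 and over 1.5-fold. These shares were 17.2% and 6.90%, beside 3.56% and 9.04% of all promoter regions. By the adjusted p-value alone, 9 were higher (31.0%) and 11 lower (37.9%), beside 10.2% and 34.7%. Only the higher shares stood well above those of all promoter regions. The check rests on 29 regions, so it gives only weak information on the direction. The higher regions lay at CCNG1 (1.57, SE 0.18), PHLDA3 (1.20, SE 0.12), BBC3 (0.93, SE 0.16) and GDF15, which had 2, and the lower ones at FAS (-0.66, SE 0.12) and TP53INP1 (-0.72, SE 0.086). By the adjusted p-value alone, CDKN1A (-0.30, SE 0.083), MDM2 (-0.26, SE 0.062) and PPM1D (-0.44, SE 0.061) were among the lower ones. In bulk chromatin, fewer cells with an open region and less opening per cell cannot be told apart. All 10 beta cell markers had promoter regions, with mean signals from 183 to 7894, whereas CD3E, LYZ and PTPRC of the 4 blood markers and PRSS1 of the 4 exocrine markers had none. The other exocrine markers had mean signals of 43.2 to 2101, and the 3 fibroblast markers of 17.6 to 142. Their part in the results was not tested.

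The promoters that fell most are printed first, since the results turn on them. POLA2 (chr11:65261712-65261991, plus strand), RFC4 (chr3:186806453-186806732, minus strand), TYMS (chr18:657403-657682, plus strand) and FEN1 (chr11:61792661-61792940, plus strand) had the largest falls at the strongest region. GINS1 (chr20:25407423-25407702, plus strand) and RRM2 (chr2:10122489-10122768, plus strand) fell further still at the region over their canonical start. MCM6 (chr2:135876414-135876693, minus strand) carries the most E2F letters. GINS1, RRM2 and MCM6 were chosen after their values had been seen. Each run is RefSeq sequence of build GRCh38, 5′ to 3′ on the strand of the gene, from 250 bases before the RefSeq start to 30 after it. Capitals mark E2F letters (TTTGGCGC, TTTCCCGC, TTTGCCGC or TTTCGCGC, on either strand) and CCAAT letters (either strand), and a run with no capitals holds neither.
POLA2: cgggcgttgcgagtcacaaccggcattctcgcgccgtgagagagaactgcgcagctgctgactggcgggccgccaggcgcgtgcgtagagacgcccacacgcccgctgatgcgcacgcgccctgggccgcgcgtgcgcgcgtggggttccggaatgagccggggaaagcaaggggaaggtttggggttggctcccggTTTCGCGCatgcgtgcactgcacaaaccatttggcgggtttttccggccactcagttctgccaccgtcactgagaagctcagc
RFC4: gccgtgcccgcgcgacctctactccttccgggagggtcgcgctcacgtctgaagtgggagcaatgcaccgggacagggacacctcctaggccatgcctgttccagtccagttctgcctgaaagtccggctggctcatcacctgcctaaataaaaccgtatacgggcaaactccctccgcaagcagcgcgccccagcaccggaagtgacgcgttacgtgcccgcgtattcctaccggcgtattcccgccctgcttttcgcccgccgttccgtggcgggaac
TYMS: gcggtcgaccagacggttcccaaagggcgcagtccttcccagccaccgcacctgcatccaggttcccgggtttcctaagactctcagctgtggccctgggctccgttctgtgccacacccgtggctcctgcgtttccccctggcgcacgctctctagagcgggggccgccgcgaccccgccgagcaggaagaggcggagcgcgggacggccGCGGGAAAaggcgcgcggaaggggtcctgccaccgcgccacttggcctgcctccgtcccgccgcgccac
FEN1: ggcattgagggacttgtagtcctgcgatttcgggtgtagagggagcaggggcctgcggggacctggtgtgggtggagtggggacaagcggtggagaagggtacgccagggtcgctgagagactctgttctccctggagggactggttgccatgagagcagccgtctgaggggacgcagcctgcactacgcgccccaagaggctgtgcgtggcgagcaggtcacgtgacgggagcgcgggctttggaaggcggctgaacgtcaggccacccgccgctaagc
GINS1: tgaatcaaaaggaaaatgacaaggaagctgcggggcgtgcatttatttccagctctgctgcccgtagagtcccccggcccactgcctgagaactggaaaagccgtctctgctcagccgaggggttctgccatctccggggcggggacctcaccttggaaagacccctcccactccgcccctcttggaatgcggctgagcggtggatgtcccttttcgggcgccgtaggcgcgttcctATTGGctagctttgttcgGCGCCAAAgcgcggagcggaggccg
RRM2: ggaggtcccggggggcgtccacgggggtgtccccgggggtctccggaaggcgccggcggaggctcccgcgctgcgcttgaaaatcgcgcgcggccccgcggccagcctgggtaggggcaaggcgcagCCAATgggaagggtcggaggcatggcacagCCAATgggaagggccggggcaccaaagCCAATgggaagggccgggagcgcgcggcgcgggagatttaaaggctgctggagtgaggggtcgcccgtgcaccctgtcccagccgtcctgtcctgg
MCM6: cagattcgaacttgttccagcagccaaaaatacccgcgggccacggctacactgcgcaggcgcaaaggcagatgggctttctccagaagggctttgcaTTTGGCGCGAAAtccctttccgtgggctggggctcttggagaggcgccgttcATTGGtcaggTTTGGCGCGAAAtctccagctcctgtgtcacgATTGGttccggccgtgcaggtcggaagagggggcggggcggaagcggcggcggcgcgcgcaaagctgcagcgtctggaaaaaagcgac

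Accessibility at replication gene promoters was lower in senescent cells, by a small amount at most genes. At the strongest promoter region of each gene, which is the one of highest mean signal, the log2 fold change was below 0 in 50 of 54 genes, with a median of -0.23 (quartiles -0.35 and -0.16), at which accessibility fell by 15.0%. It ranged from -0.77 at POLA2, the regulatory subunit of the polymerase that makes primers, to 0.16 at a region of PCNA, the sliding clamp. The same median was -0.13 over 15439 other protein-coding genes, of which 74.4% lay below 0, and -0.12 over others of like mean signal. The SEs of these regions ran from 0.047 to 0.13.

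Most of these falls were measured precisely but were smaller than 1.5-fold. By both limits together, the adjusted p-value under 0.05 and a change of over 1.5-fold, hereafter called, 9 of the 67 member regions (13.4%) were lower, beside 9.04% of all promoter regions, and 0 were higher, beside 3.56%. Of other promoter regions of like mean signal, 4.43% were called lower and 1.22% higher. Counted by gene at the strongest region, 4 of 54 members (7.41%) were called lower, close to the 7.01% of other genes. That share was not matched on mean signal, whose median was 1143 in members and 839 in other genes. With the adjusted p-value alone, the authors' DESeq2 table gave 49 member regions lower (73.1%), beside 34.7% of all promoter regions and 39.2% of those of like mean signal. It gave 1 member region higher, beside 10.2% of all. At an unadjusted p-value under 0.05, 50 regions were lower and 2 higher, beside 39.9% and 12.2% of other promoter regions. The 95% interval of the strongest region stayed inside 1.5-fold in either direction at 47 of the 54 genes. At the other 7 the interval reached 1.5-fold or passed it. Of these, 4 were the genes called lower, with estimates beyond that limit. Member regions were also stronger than other promoter regions, with a median mean signal of 997 against 505 and a median SE of 0.071 against 0.095, and they had a median GC content of 60.2% against 62.2%.

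A fall at promoters was common to the whole table, and the size of the member changes depends on how it is treated. Removal of the running trend of the fold change on mean signal moved the median promoter region by 0.11 on the log2 scale, and removal of the trend on GC content moved it by 0.13. After these removals the median of the strongest member regions was -0.12 and -0.16, and that of all promoter regions was -0.04 and -0.03. The member regions lower at the adjusted p-value were then 30 and 29 of 67, beside 22.8% and 22.0% of all promoter regions, and 4 were higher each time, beside 16.6% and 17.1%. Counted by gene at the strongest region, 23 and 21 of 54 were lower. Before the removals 40 of 54 were (74.1%), beside 39.7% of other genes, whose share was not counted after them. Of the 9 regions called lower, 5 stayed called without the trend on mean signal and 6 without that on GC content. No other member region was called, so these were 5 and 6 of 67, beside 9.11% and 7.15% of all promoter regions. The member share was thus below that of all promoter regions without the trend on mean signal, and above it without that on GC content. Shares at like mean signal were not counted after the removals. Before them, 9.03% of other promoter regions were called lower, but 4.43% of those of like mean signal. RFC4, TYMS and FEN1 were under 1.5-fold after either removal, though still past the adjusted p-value. The sign changed at 8 genes under each removal, and the strongest region of none of these had passed the adjusted p-value before it.

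**Figure D1:**
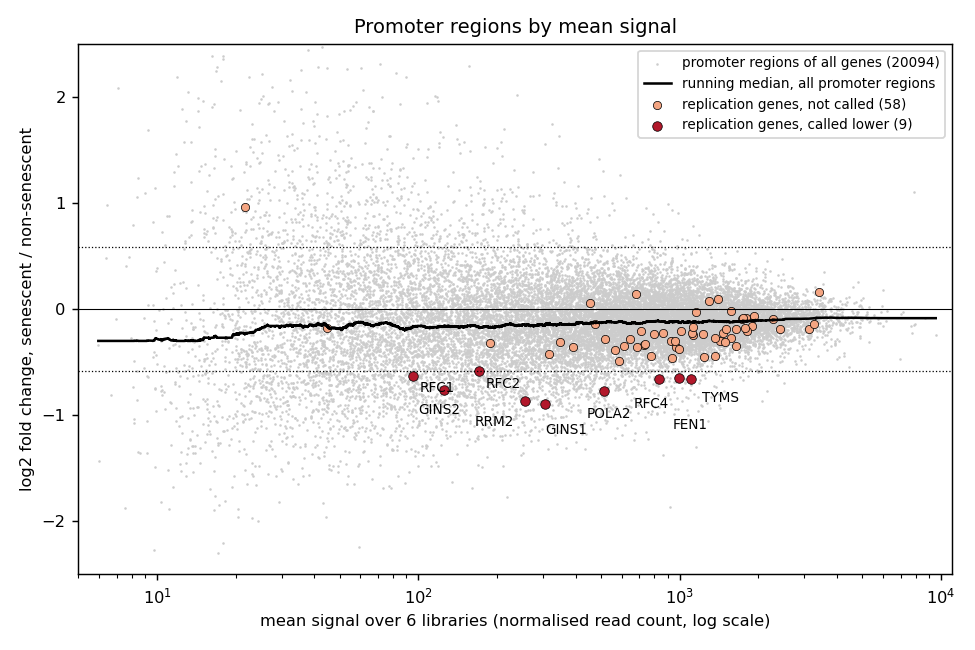
Log2 fold change (senescent over non-senescent) against mean signal on a log axis for all 20094 promoter regions (grey) and the 67 regions of replication genes (coloured). The dotted lines mark 1.5-fold, the black line is a running median, which lies below 0 at most signals, and the 9 regions called lower, named in the plot, have mean signals between 95.1 and 1106.

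The choice of the region mattered more than any threshold for some genes. For 7 genes the strongest region did not cover the canonical start site, and at GINS1, PCNA, POLD3, TIPIN and RPA3 it lay in the promoter window of a neighbour. The region over the canonical start was therefore also read, a choice made after seeing the data. It existed for 53 genes, all but RPA3. There the median log2 fold change was -0.28, a value at which accessibility fell by 17.4%, against -0.13 over 13275 other genes, both overall and at like mean signal. Of the 53 regions, 51 were below 0, and 43 (81.1%) passed the adjusted p-value as lower, beside 40.5% of the other genes and 42.2% at like mean signal. None was higher at that limit, beside 7.65% of the other genes. Called lower were 6 (11.3%), against 5.82% of the other genes and 2.93% at like mean signal. With the trends on mean signal and on GC content removed, the median was -0.15 and -0.17, against -0.02 over the other genes each time. Then 26 and 25 of the 53 regions were lower, beside 21.1% and 21.6% of the other genes, and 2 were higher each time, beside 16.2% and 17.6%.

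GINS1, a subunit of the GINS complex that joins the active helicase, had regions that lay far apart in value. Its canonical start lay in a region of 306 mean signal (chr20:25407262-25408072), whose log2 value was -0.89 (SE 0.12, adjusted p 3.9e-13). This was the largest fall of any member promoter region, where accessibility fell by 46.1%. Its strongest region, of 1407 mean signal, was 17136 bases upstream in the promoter of ABHD12 and had 0.09 (SE 0.076, adjusted p 0.33). That value turned past the adjusted p-value as higher after either trend was removed (0.21 and 0.18). PCNA had the same layout. The region over its canonical start (chr20:5119174-5120341, mean signal 3271) fell by 0.14 on the log2 scale (SE 0.046, adjusted p 0.0077), with a value of -0.04 without the trend on mean signal and of 0.02, a change of sign, without the trend on GC content. The region 7137 bases upstream, in the promoter of CDS2, rose (0.16, SE 0.047, adjusted p 0.0029) and was the only member region higher at the adjusted p-value.

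At TIPIN and POLD3 the strongest region also lay in a neighbour's promoter window. For PCNA and TIPIN this region also holds the start that RefSeq gives the gene, so it is shared with the neighbour and not the neighbour's alone. TIPIN, which stabilises the fork with TIMELESS, had -0.49 (SE 0.096, adjusted p 2.4e-06) over its canonical start and -0.08 (SE 0.056, adjusted p 0.25) at a region shared with MAP2K1, 30501 bases upstream. POLD3, a subunit of polymerase delta, had -0.36 (SE 0.080, adjusted p 4.2e-05) over its canonical start and -0.06 (SE 0.057, adjusted p 0.39) at a region shared with LIPT2, 99105 bases upstream. Both neighbour regions changed sign without either trend. RRM2, the small subunit of ribonucleotide reductase, fell at both of its regions, by 0.87 (SE 0.14, adjusted p 2.6e-09) over the canonical start and by 0.36 (SE 0.10, adjusted p 0.0013) at a region 2252 bases upstream. At GINS2, RFC1 and RFC2 the weaker region, beside the start, was the one called lower. At GINS2 the weaker region, in an intron, had -0.76 (SE 0.17) and the canonical one -0.34 (SE 0.082). At RFC1 the weaker upstream region had -0.63 (SE 0.21) and the canonical one -0.42 (SE 0.12). RFC2 had -0.59 (SE 0.15) in an intron and -0.30 (SE 0.071) over the start. The difference between regions of a gene was not tested, since they were counted in the same libraries.

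**Figure D2:**
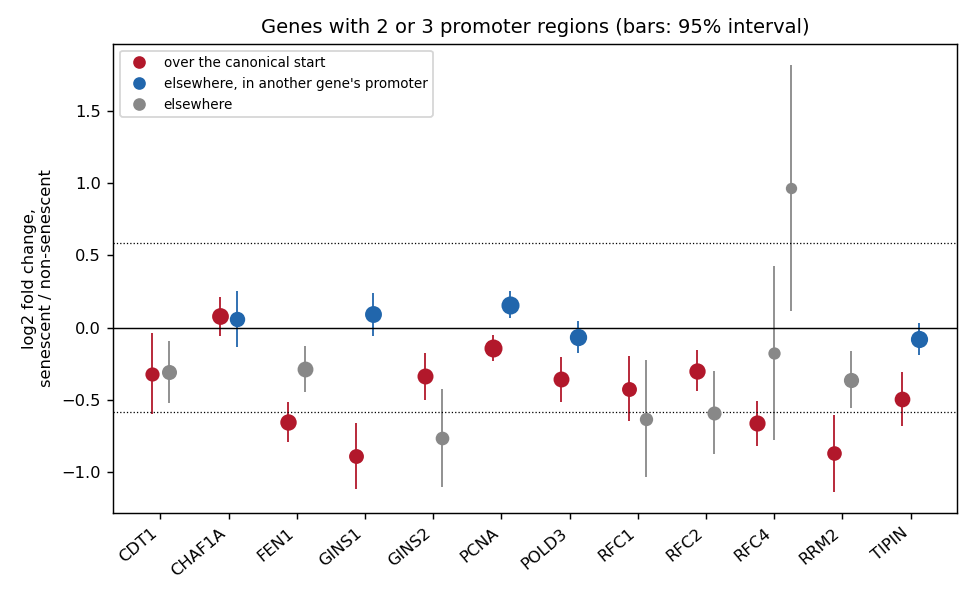
Log2 fold change with its 95% interval for the 12 genes with 2 or 3 promoter regions, with larger points for a higher mean signal. The region over the canonical start (red) lies below 0 at all of these genes except CHAF1A (0.08), and the neighbour regions (blue) of GINS1, PCNA, POLD3 and TIPIN lie nearer to or above 0. PCNA's red point turns to 0.02 without the trend on GC content.

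Promoter regions shared with a neighbour had smaller falls than the members' own, as a description without a test. The strongest region lay in the promoter window of another protein-coding gene for 23 members and was the member's own for 31. The median log2 fold change of the own regions was -0.31, with 27 lower at the adjusted p-value and 3 called, and that of the shared ones was -0.18, with 13 lower and 1 called. Among other genes these medians were -0.13 (11912 own) and -0.14 (3527 shared). Over own and shared strongest regions of other genes together, 39.7% were lower at the adjusted p-value and 7.01% were called lower. These shares were not counted for own and shared regions apart. The shared member regions had a higher median mean signal (1460 against 958). A cut of the transposase in a shared region cannot be assigned to 1 of its genes.

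Origin recognition and licensing come first in the order of the process. The 6 ORC subunits, which mark origins, had values between -0.25 and -0.03 (median -0.19). ORC1 (-0.25, SE 0.070, adjusted p 0.0016), ORC5 (-0.21, SE 0.079) and ORC6 (-0.18, SE 0.049) fell, while ORC2 (-0.10), ORC3 (-0.03, SE 0.062, adjusted p 0.76) and ORC4 (-0.19, SE 0.13) did not pass. ORC2 and ORC3 changed sign without either trend. Without the trend on mean signal none of the 6 passed as lower, and without that on GC content 2 did, ORC1 and ORC5. The regions of ORC1, ORC3, ORC4 and ORC6 are shared with PRPF38A, RARS2, MBD5 and VPS35. Among the licensing factors, CDC6 and CDT1 load the MCM helicase and GMNN (geminin) restrains CDT1. All 3 fell at the strongest region, with GMNN at -0.35 (SE 0.059, adjusted p 3.8e-08), CDC6 at -0.31 (SE 0.062, adjusted p 7.1e-06) and CDT1 at -0.31 (SE 0.11, adjusted p 0.014). The CDT1 region over the canonical start had -0.32 (SE 0.14) and missed the limit (adjusted p 0.058). GMNN and CDC6 still passed without either trend, and CDT1 did not.

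MCM2 to MCM7 form the ring of the replicative helicase, and MCM8 is a paralogue used in repair. Of the ring genes, 5 of 6 fell, with a median of -0.22, and none reached 1.5-fold. MCM6 had the largest fall at -0.36 (SE 0.067, adjusted p 6.2e-07), where accessibility fell by 22.1%. MCM4 followed at -0.28 (SE 0.066), and MCM2, MCM5 and MCM7 lay between -0.22 and -0.19. MCM3 had the smallest value, -0.09 (SE 0.055, adjusted p 0.19), and its sign changed without the trend on mean signal (0.03). MCM8 fell by 0.27 (SE 0.064). Of the ring genes, MCM4 and MCM6 still passed without the trend on mean signal, and MCM6 without that on GC content. The differences between the ring genes were not tested, since their regions were counted in the same libraries.

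Helicase activation needs the kinase CDC7 with its partner DBF4, then MCM10, CDC45 and GINS. CDC7 had the largest fall at a strongest region in this role, -0.45 (SE 0.067, adjusted p 2.4e-10), and its partner DBF4 fell by 0.16 (SE 0.054, adjusted p 0.0083). The 4 GINS subunits all fell at the canonical start, from -0.23 at GINS4 to -0.89 at GINS1. MCM10 fell by 0.23 (SE 0.063). Over the canonical start 7 of the 8 genes of this role were lower, and 3 and 2 were without the trends on mean signal and on GC content. GINS3, GINS4, MCM10 and DBF4 passed under neither removal. CDC45 had -0.08 (SE 0.064, adjusted p 0.33), in a region shared with UFD1, and changed sign without either trend (0.03 and 0.05).

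Priming and the clamp loader held some of the larger falls. POLA2 (chr11:65261436-65262459, mean signal 515) had -0.77 (SE 0.094, adjusted p 9.5e-15), so accessibility fell by 41.4%, and the primase subunits PRIM1 and PRIM2, which lay the RNA primer, had -0.44 (SE 0.075) and -0.24 (SE 0.077). RFC4 is a subunit of the clamp loader replication factor C, as are RFC1, RFC2, RFC3 and RFC5. Its region over the start (chr3:186806086-186807134, mean signal 836) had -0.66 (SE 0.080, adjusted p 5.6e-15), and the other 4 loader genes fell by 0.30 to 0.42 on the log2 scale at their strongest regions. RFC4 has another pair of regions inside the gene at low mean signal (44.9 and 21.7), with -0.18 (SE 0.31) and 0.97 (SE 0.43, adjusted p 0.060), neither of which passed. Without the trends POLA2 had -0.65 and -0.64 and stayed called, while RFC4 had -0.55 and -0.52, past the adjusted p-value but under 1.5-fold. PRIM2 did not pass without the trend on mean signal, nor did RFC2 at its strongest region without that on GC content.

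The polymerase subunits and RPA moved less. POLE2, an accessory subunit of the leading strand polymerase epsilon, had -0.39 (SE 0.090, adjusted p 9.9e-05), whereas the catalytic subunits POLE (-0.17, SE 0.071, adjusted p 0.046) and POLD1 (-0.19, SE 0.065) and the small subunit POLD2 (-0.21, SE 0.062) fell by less. The falls of POLE, POLD1 and POLD2 did not pass the adjusted p-value after either trend was removed. The 3 subunits of RPA, which coats single-stranded DNA in replication and also in repair, were the only role besides histone deposition without a fall. RPA1 had 0.14 (SE 0.087, adjusted p 0.18), RPA2 had -0.02 (SE 0.059, adjusted p 0.82) and RPA3 had -0.09 (SE 0.055, adjusted p 0.17). Only the RPA2 region is the member's own. That of RPA1 is shared with SMYD4, and that of RPA3 lies 77834 bases from its canonical start, in the promoter window of UMAD1. The 95% intervals of RPA1 (-0.03 to 0.31), RPA2 (-0.13 to 0.10) and RPA3 (-0.20 to 0.02) all exclude a change of 1.5-fold. Without the trends RPA2 and RPA3 turned to values above 0 and RPA1 passed as higher (0.28 and 0.30).

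On the lagging strand, FEN1 removes the flap ahead of the next fragment and LIG1 seals the nick. FEN1 (chr11:61792066-61793401, mean signal 997, shared with TMEM258) had -0.65 (SE 0.071, adjusted p 2.9e-18), where accessibility fell by 36.4%. Its second region, over the coding exon, had -0.29 (SE 0.081). LIG1, shared with ZSWIM9, had -0.18 (SE 0.066, adjusted p 0.022), which did not pass without either trend.

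All 5 genes of nucleotide supply fell. TYMS, thymidylate synthase, had the smallest p-value of any member promoter, with -0.66 (SE 0.066, adjusted p 2.5e-21) in the region chr18:657061-658811 at a mean signal of 1106. RRM1 and RRM2 encode the subunits of ribonucleotide reductase and had -0.44 (SE 0.067) and, over the canonical start, -0.87. DUT, which removes dUTP, had -0.46 (SE 0.088) and TK1, thymidine kinase, had -0.33 (SE 0.084). The median of the role was -0.44 at the strongest region and -0.46 at the canonical start. Without the trend on mean signal all 5 still passed as lower, and without that on GC content 3 did at the strongest region and 4 over the canonical start.

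Histone deposition behind the fork is the task of CHAF1A and CHAF1B, subunits of chromatin assembly factor 1. CHAF1A had 0.08 (SE 0.069, adjusted p 0.36) in a region shared with SH3GL1, which passed as higher without either trend (0.20 and 0.22), and CHAF1B had -0.14 (SE 0.096, adjusted p 0.22), with a sign change to 0.003 without the trend on GC content. Of the genes that protect the fork, CLSPN (-0.31, SE 0.057), TIMELESS (-0.38, SE 0.071), WDHD1 (-0.21, SE 0.073) and TIPIN at its canonical start fell. WDHD1, which links the helicase to polymerase alpha, did not pass without either trend.

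**Figure D3:**
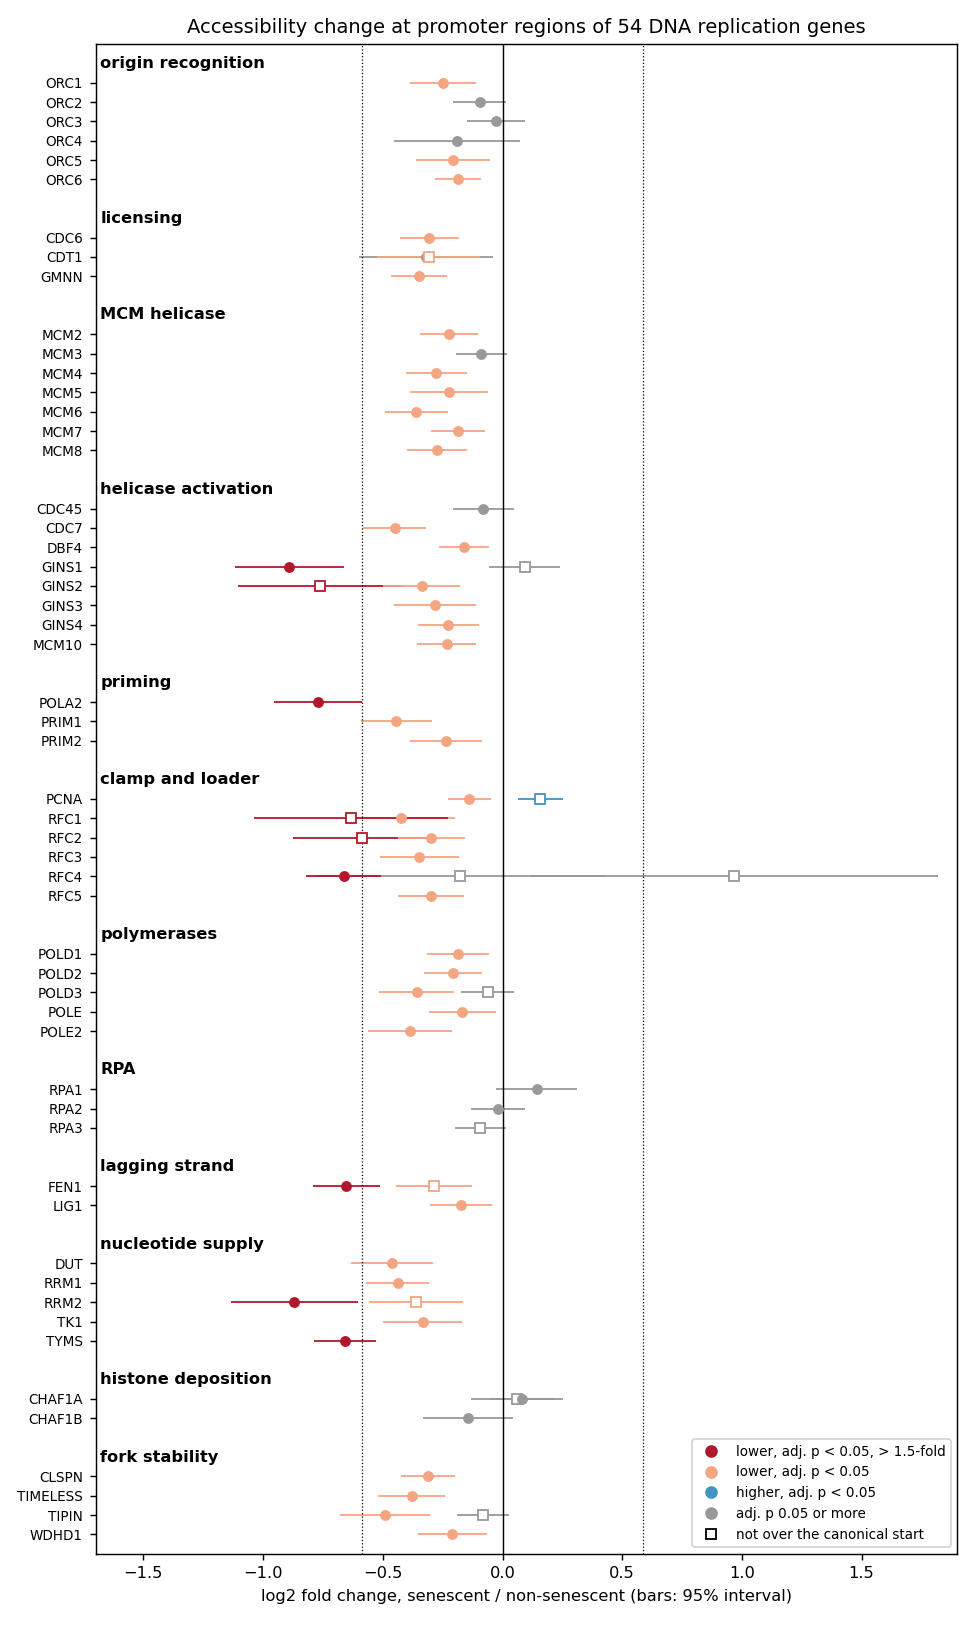
Log2 fold change with its 95% interval at each of the 67 promoter regions, grouped by role, with dotted lines at 1.5-fold. Open squares do not cover the canonical start. Nearly all circles lie to the left of 0, with RPA1 and CHAF1A to the right. Without the trends on mean signal or GC content the medians of RPA and of histone deposition turn to values above 0, while the other 10 roles keep theirs below 0.

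The letters of the E2F site were more frequent in these promoters than in those of other genes. RefSeq promoter windows of 300 bases, from 250 before to 50 after the start, matched 48 of the 54 members, and RPA2, MCM4, GINS4, RPA3, MCM5 and POLD3 had no entry. The windows of 44 members start within 500 bases of the canonical start, and those of ORC4, PCNA, PRIM2 and TIPIN lie at another start. One or more of the 4 E2F words was present in 19 windows (39.6%) and in 686 of 15307 windows of protein-coding genes (4.48%). The E2F words lay close to the start, with a median position of -31 and 15 of 25 matches within 100 bases before it. Matches that overlap on opposite strands were counted separately, as in MCM6.

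CCAAT letters, read on both strands, were present in 26 of 48 member windows (54.2%) and in 36.6% of all windows. The CHR letters TTTGAA, a late cell-cycle element, were present in 2 (4.17%), against 12.1% of all windows. E2F and CCAAT letters occurred together in 11 members (22.9%) and in 1.91% of all genes, and 13 members held none of the 3 motifs. A match of letters is a description of the sequence and not of binding.

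All 5 MCM helicase genes with an entry held E2F words. In the MCM6 run printed above, TTTGGCGC and its overlapping partner GCGCGAAA form the same 12-letter stretch at positions -152 and -90, counted from the first base of the E2F word to the start. POLA2 holds TTTCGCGC at -53, TYMS holds GCGGGAAA, the reverse complement, at -39, and GINS1 holds GCGCCAAA at 6 beside ATTGG at -13. RRM2 holds no E2F word but the CCAAT box 3 times, at -123, -93 and -66, each followed by the same letters. RFC4 and FEN1, both called lower, hold neither.

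The size of the fall was close in genes with and without the E2F words. At the strongest region, members with the words had a median of -0.28 on the log2 scale (19 genes, 15 lower at the adjusted p-value). Those without had -0.24 (29 genes, 22 lower). Over the canonical start these medians were -0.31 and -0.25, and they include ORC4, PCNA, PRIM2 and TIPIN, whose windows lie at another start. Among other genes the medians were -0.17 (609 genes with the words) and -0.13 (11679 without). Of 15439 other genes 39.7% were lower at the adjusted p-value at the strongest region, a share not counted with and without the words. The role in which every window held the words, the MCM helicase, had a median of -0.22, whereas nucleotide supply, with 1 of 5, had -0.44. Other roles went the opposite way. RPA (0 of 1 windows) and histone deposition (0 of 2) had -0.02 and -0.03, and licensing, with 2 of 3, had -0.31. With CCAAT letters the member median was -0.22 and without them it was -0.30.

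**Figure D4:**
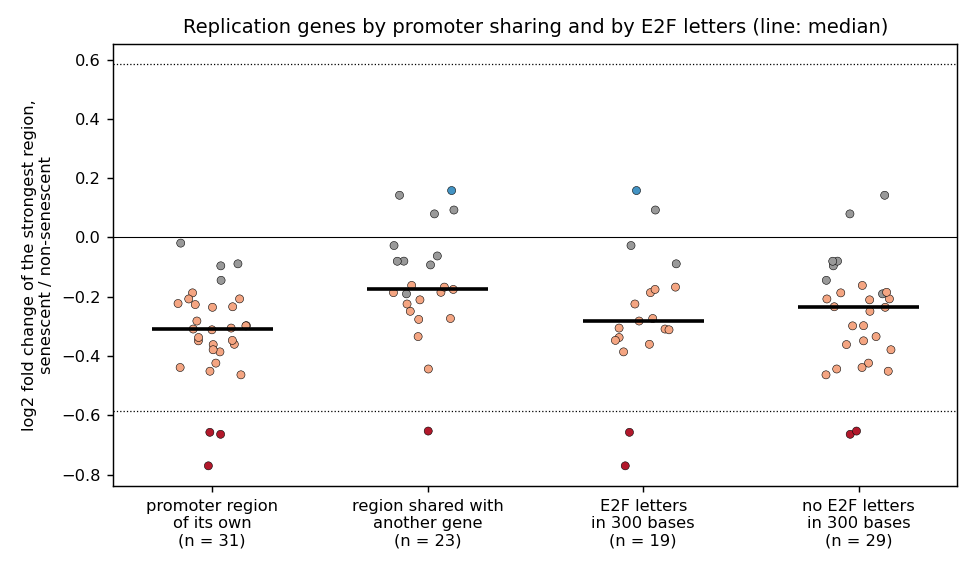
Log2 fold change of the strongest promoter region of each replication gene, with a line at the median, split on the left by whether the region lies in another gene's promoter window and on the right by E2F letters in the RefSeq window. Own regions (median -0.31) lie lower than shared ones (-0.18), while the groups with (-0.28) and without (-0.24) E2F letters overlap over nearly their whole range. Sideways spread has no meaning, and 8 of the 54 points change sign when the trend on mean signal is removed.

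Regions away from promoters were weaker than promoter regions, and they moved in both directions. The 93 distal regions belonged to 31 genes, and 23 genes had none. They lay between genes in 48 cases, in introns in 41, in untranslated exons in 3 and in a coding exon in 1, and 33 lay inside the gene they were assigned to. Their median mean signal was 56.9, against 88.5 in other distal regions, and their median SE was 0.26. Just outside the promoter windows, the nearest region lay 2290 bases from a start of WDHD1 (0.15, SE 0.16, adjusted p 0.49), followed by regions 2740 bases from the start of POLE (-1.14, SE 0.26) and 2838 from one of POLD3 (1.41, SE 0.33), which were called in opposite directions.

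Of the 93 regions 14 were called lower (15.1%), beside 10.9% of all distal regions within 100 kb, and 9 were called higher (9.68%), beside 17.4%. At like mean signal these shares were 10.5% and 19.7%. The median log2 fold change of the member regions was -0.10, against 0.03 in other distal regions and 0.08 at like mean signal. Below a mean signal of 50 lay 42 of the member regions, which held 12 of the 23 calls, 7 higher and 5 lower. Above it, 9 were lower and 2 higher. Nearer to the start sites the balance turned. Within 50 kb, 6 of 70 member regions were lower (8.57%), beside 10.8% of all, and 9 were higher (12.9%), beside 16.8%. Within 20 kb, 3 of 42 were lower (7.14%), beside 10.9%, and 6 were higher (14.3%), beside 16.1%. At a limit of 2-fold, 5 of the 93 were lower and 8 higher. The shares of all distal regions were not counted at this limit, nor below and above a mean signal of 50. Lower calls lay at 9 genes and higher calls at 8, with 4 genes in both.

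A region in an intron of MCM5 was the strongest change of any member region by its p-value. It lay 11833 bases downstream of a start of the gene (chr22:35411920-35412607) with a mean signal of 432. Its log2 value was -1.61 (SE 0.10, adjusted p 2.1e-52), while the MCM5 promoter fell by only 0.22 (SE 0.083, adjusted p 0.020). The value was -1.51 without either trend. The other large falls were at low mean signal. One lay 10048 bases downstream of a start of RRM2 (-1.80, SE 0.38, adjusted p 1.6e-05). Another lay 61418 bases downstream of a start of DUT (-1.48, SE 0.34, adjusted p 9.2e-05), and both had mean signals under 50.

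The largest rise lay 16610 bases upstream of MCM6 (2.22, SE 0.38, adjusted p 7.2e-08, mean signal 35.5), whose promoter fell. An intron of RPA1 held a rise of 1.84 (SE 0.36, adjusted p 4.0e-06, mean signal 32.2). A region 23173 bases downstream of a start of DUT had 1.60 (SE 0.34, adjusted p 1.7e-05, mean signal 37.9). A rise at higher signal lay 26039 bases upstream of GINS3 (1.42, SE 0.19, adjusted p 5.8e-12, mean signal 119). RPA3, with 9 regions, had 3 lower and 1 higher, and DUT, with 6, had 2 lower and 1 higher. Assignment by the nearest start does not show that a region acts on that gene.

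**Figure D5:**
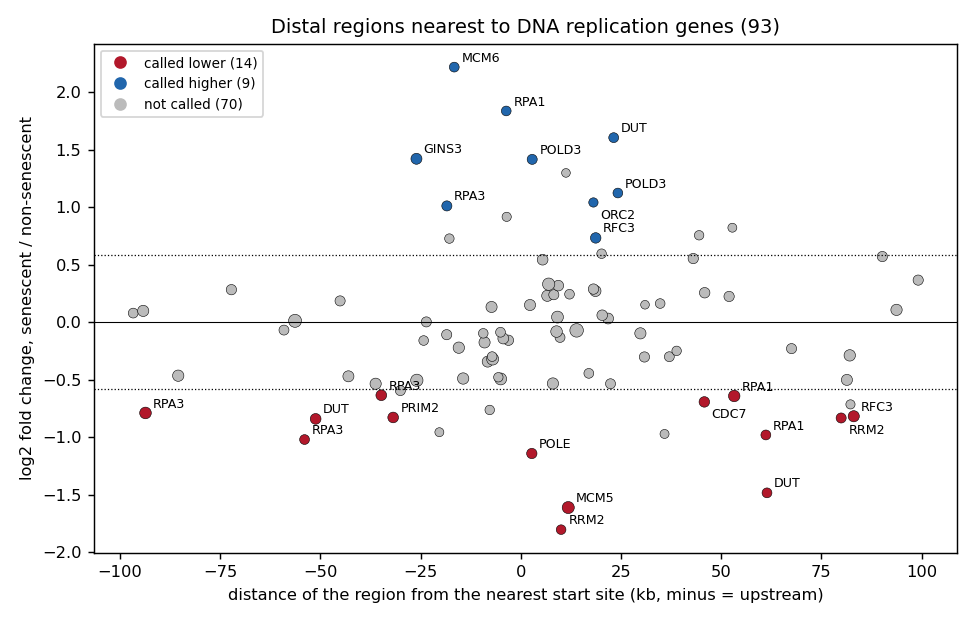
Log2 fold change of the 93 distal regions against the distance to the nearest start site in kb (minus for upstream), with larger points for a higher mean signal and dotted lines at 1.5-fold. The 14 regions called lower (red) and the 9 called higher (blue) are spread on both sides of the start, with MCM6 (2.22) at the top and RRM2 (-1.80) and MCM5 (-1.61) at the bottom.

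Further genes of replication, 32 that are no members of the list, were read in the same way. Promoter regions were present at 31 of them, 34 in all, and the median of the strongest regions was -0.17. Of the 34 regions 18 were lower (52.9%) and 3 higher (8.82%) at the adjusted p-value, beside 34.7% and 10.2% of all promoter regions, and 13 did not pass. Called lower were 5 (14.7%), beside 9.04% of all. DNA2, the nuclease that trims long flaps, had -0.98 (SE 0.096, adjusted p 1.5e-22). MTBP, which works with TICRR in origin firing, had -0.77 (SE 0.12). RNASEH2A, which removes RNA from DNA, had -0.75 (SE 0.091), ATAD5, which unloads PCNA, had -0.69 (SE 0.11), and DSCC1, of an alternative clamp loader, had -0.59 (SE 0.072). The 1 region called higher was a weak region of TONSL (1.88, SE 0.28, mean signal 54.8), whose stronger region had -0.13 (SE 0.11, adjusted p 0.35).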

How the data were processed

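Accessibility was measured in 3 senescent and 3 non-senescent libraries, grouped by their labels. Before deposit, as the study's methods state, reads were trimmed, mapped on hg38 by Bowtie2, cleared of duplicates and of mitochondrial reads, and shifted for the offset of the transposase. The authors then used MACS2 for peaks, counted reads over the union of peaks and compared both groups by DESeq2. The methods name no covariates for this comparison. Tool versions are not given in the sources used here. The mean signal in the authors' deposited table is the mean of normalised counts over the libraries. The deposited log2 fold change and its SE are on the log2 scale of the authors' fit, and the deposited score is their Wald statistic. The deposited p-value and adjusted p-value are the authors'. All 108542 regions were checked, and in 0 did the score differ by over 0.001 from the fold change over its SE, or the adjusted p-value from the Benjamini-Hochberg adjustment of the Wald p-value. Depth per library cannot be read from the table, which has 0 columns of single libraries. The study's methods state only a range of reads per sample, which is not repeated here, and the number of libraries limits the precision.

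The planned rule for this case was followed, so the authors' own comparison supplied every test, and no test was added. The concentration of the drug differs between the labels and the methods and is not reported here. Genes came from GENCODE 44, and coordinates were read as BED intervals and printed from base 1. Values at like mean signal weight 20 bins of mean signal as the members fall in them. Trends are running medians over 1000 regions on each side. The member list, the other lists and the rules were chosen with earlier results of these data known. Every member could be named. Full values were set for those with a called promoter region and for the largest and smallest change of each role, for the 3 largest distal rises and falls, and for the other replication genes with a called region, while sequences were set for 4 members with the largest falls at the strongest region. GINS3 among the distal regions was added after its value had been seen. The entry for RPA2, the member with the smallest change, is not in the sequence table. Alternatives were other limits, windows, start sites, scalings and choices of region. The steps were tested on simulated data and run with Python 3.11.15, pandas 2.3.3 and scipy 1.17.1.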

Additional observations from a re-analysis of the deposited data

How the results depend on the processing

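Of 81 alternative values for counts and medians, 55 stayed within a ratio of 1.5 or within the error, and 26 did not. Main counts were 9 lower and 0 higher member promoter regions, 14 lower and 9 higher distal regions, and 5 lower and 1 higher regions of the other replication genes. With no fold change limit 49 member promoter regions were lower (73.1%) and 1 higher, beside 34.7% and 10.2% of all promoter regions. Of the distal regions 23 were lower (24.7%) and 11 higher (11.8%), beside 19.7% and 23.1% of other distal regions. Of the other replication genes 18 regions were lower (52.9%) and 3 higher (8.82%). With a limit of 2-fold 0, 5 and 0 were lower, with 8 distal regions higher. With a Wald test against 1.5-fold, 0, 2 and 1 were lower, with 4 distal regions higher. Shares over all regions were not counted for either. Without the trend on mean signal 5 member promoter regions and 3 of the other genes were lower, beside 9.11% of all promoter regions. That share was not matched on mean signal. Start sites of all transcripts gave 80 member promoter regions, 12 lower and 3 higher, and the shares over other genes were not counted under this definition. At a mean signal of at least 50, 9 distal regions were lower and 2 higher, and limits of 50 and 20 kb left 6 of 70 and 3 of 42 lower, with 9 and 6 higher. The member promoter median of -0.23 became -0.12 without the trend on mean signal, -0.16 without that on GC content and -0.31 without shared regions. For p53 target promoters, no limit gave 9 higher and 11 lower, beside 10.2% and 34.7% of all promoter regions. Without the trends on mean signal and on GC content 5 and 6 were called higher and 1 lower each time.

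At the strongest region, signs reversed at genes that had not passed the adjusted p-value there. Without the trend on mean signal these were ORC2 (0.019), ORC3 (0.085), MCM3 (0.025), CDC45 (0.033), POLD3 (0.053), RPA2 (0.10), RPA3 (0.014) and TIPIN (0.033). Without that on GC content they were ORC2 (0.031), ORC3 (0.080), CDC45 (0.050), POLD3 (0.070), RPA2 (0.11), RPA3 (0.044), CHAF1B (0.0032) and TIPIN (0.047). Over the canonical start PCNA, which had passed, turned to 0.025 without the trend on GC content. The cause was not tested. No paired analysis was possible because single libraries have no values in the table. For the same reason the replicate block, leaving out single libraries, and edgeR against DESeq2 were not run. Precision is limited by the 3 libraries of each group and, at distal regions, by low signal.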
